A study of Drosophila melanogaster with 16 samples.

Results

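Body-wall muscle of tumour-bearing Drosophila larvae was compared between animals on a high-sugar diet (HSD) at the Mid stage and animals on a control diet (CD), which uses 8 of the 16 samples of the series, 4 libraries in each group. All animals carried ras1 G12V;csk-/- tumours of the eye epithelium, which express active Ras and lack the Src inhibitor Csk, and the 16 samples include none from a tumour-free animal. The tumour clones were made with a recombinase under an eyeless enhancer, so the muscle was not itself a target of transformation. By the crosses in the methods, the muscle was heterozygous for the csk mutation and carried the ras1 G12V transgene. Each library came from pooled dissected tissue. CD held 0.15 M sucrose and its muscle was taken at day 8 after egg laying. HSD held 1.0 M sucrose and the Mid muscle was taken at day 14. By the methods both are late third-instar larvae, since HSD delays the third instar, which makes this the comparison of an HSD stage with CD that is closest in stage. Diet and age changed together, and their parts cannot be told apart. HSD muscle at an Early stage (day 12) and a Late stage (day 16) is given for the same genes where it shows when a level was reached. The day of Early is that of the column names. The paper's methods give an earlier day for the Early stage of its muscle staining. The labels call the libraries replicates and do not say whether they came from separate cultures, so p-values measure the spread between these samples.

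Larval body-wall muscle consists of large multinucleate fibres filled with sarcomeres, and it stores and releases amino acids. Fly muscle takes up sugar and amino acids under the insulin and TOR pathways, turns damaged protein over through the proteasome and autophagy, and listens to secreted ligands such as FGFs, activins and the Unpaired cytokines. A diet rich in sugar is known to raise fat synthesis in larvae through sugar-sensing transcription factors, among them Sugarbabe.

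Between 9666672 and 19553907 reads per CD library and between 20693390 and 26978468 per Mid library were counted on genes. CD 3 had the lowest total. Of the 15682 gene identifiers in the table, 11607 passed the filter on low counts and were tested. Levels are given in CPM, counts divided by the TMM-scaled library size, and compare 1 gene between libraries, not different genes. At Mid, 739 genes had an edgeR adjusted p under 0.05, which is 6.37% of those tested. They are called changed here: 512 were higher (4.41%) and 227 lower (1.96%). Counts of list members given below stand against these shares, from which 1 call does not set a short list apart. The median log2 fold change over all genes tested was -0.06. Scaling moved the direction of the calls: 69.3% of them were higher with TMM, 59.0% with DESeq2 size factors and 54.1% with upper-quartile normalization, which put the median of all genes at -0.18. Of the 739 genes, 687 had no overlap between the 4 Mid and the 4 CD libraries, where 16.5% of all genes tested had none. The number of calls depended on single libraries, with 210 calls without CD 2, 221 without CD 3, 181 without Mid 1 and 195 without Mid 4. It was 1098 without CD 1, 579 without CD 4, 800 without Mid 2 and 613 without Mid 3. A core of 142 genes, 111 higher and 31 lower, stayed called in the same direction in all 8 fits that left out 1 of the libraries, and genes of this core are named as such below. Where calls of several genes are said to be lost without a list of libraries, each was lost without at least 1 of them. Of the 739 genes, 140 are in one of the 64 functional gene lists described below, and 599 are in none. Exons of 30 of the 162 genes named here overlap a counted gene on the opposite strand (sls, aop, JhI-21, P5cr, Ets21C, CG8664, LysD, kon, Ilp8, P5cr-2, Shmt, tobi, RpL24-like, RpL3, Myc, Polr1A, Rpt6, Atg4a, Hsp68, Hsp83, Ho, Cyp6g1, Dif, mspo, Timp, Jon44E, LysC, Nopp140, GstE1 and Treh), and those of sug and Krn overlap CG13319 and Ndfip on the same strand. Reads of such pairs may have been shared.

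The tissue was checked against marker genes. All 9 muscle markers were detected in every group, and their summed level was 17576 to 47428 CPM in CD and 12293 to 35005 CPM at Mid. Neither edgeR nor DESeq2 called any of the 9, and 0 had an unadjusted p under 0.05. Markers of other tissues were present as well. Those of the midgut moved with the groups, as did the sum of the Malpighian tubule markers and part of the salivary gland markers. The 8 midgut markers summed to 101, 404, 158 and 148 CPM in CD 1 to CD 4 and to 26.3, 67.7, 55.9 and 31.5 CPM in Mid 1 to Mid 4, without overlap, and none of them was at 0 in either group. The 12 testis markers summed to 475, 324, 206 and 95.1 CPM in the CD libraries and to 214, 99.2, 30.1 and 4.73 CPM in the Mid libraries, with overlap. The 3 genes of male X dosage compensation, such as roX1, summed to 897, 988, 413 and 136 CPM in the CD libraries and 1924, 1157, 731 and 272 CPM in the Mid libraries, which also overlapped. The 6 fat body markers ran from 11728 to 20578 CPM in CD and from 5442 to 12552 CPM at Mid, and the 8 epidermis and cuticle markers from 33982 to 64028 and from 10676 to 45532 CPM, both with overlap. The 4 Malpighian tubule markers summed to 115.02, 101, 104 and 98.99 CPM in the CD libraries and to 84.1, 77.0, 85.5 and 71.0 CPM in the Mid libraries, without overlap. The single genes did not share this direction: 3 of the 4 had estimates above 0 and 1 below, with a median of 0.16. Neither edgeR nor DESeq2 called any of the 4, and 1 had an unadjusted p under 0.05. Of the 7 salivary gland markers 6 were tested. The 5 glue genes among these, Sgs3, Sgs4, Sgs5, Sgs7 and Sgs8, had every Mid library below every CD library, and ng3 had a higher estimate at Mid. The list median was -4.25, edgeR called 0 of the 6 with 5 at an unadjusted p under 0.05, and DESeq2 called 2 lower and 1 higher. The 7 genes summed to 43.2, 88.9, 25.2 and 62.6 CPM in the CD libraries and to 7.50, 63.3, 5.38 and 0.427 CPM in the Mid libraries, where Mid 2 overlapped with CD. Trachea markers (5 genes) ran from 1214 to 2511 CPM in CD and from 1461 to 3548 CPM at Mid, and nervous system markers (6 genes) from 66.9 to 109 and from 62.2 to 95.1 CPM, both with overlap. Haemocyte markers (7 genes) summed to 1155 to 3864 CPM in CD and 1339 to 2280.3 CPM at Mid. The part these tissues had in any result was not tested, and in bulk samples fewer cells of a type and less RNA per cell cannot be told apart.

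**Figure D1:**
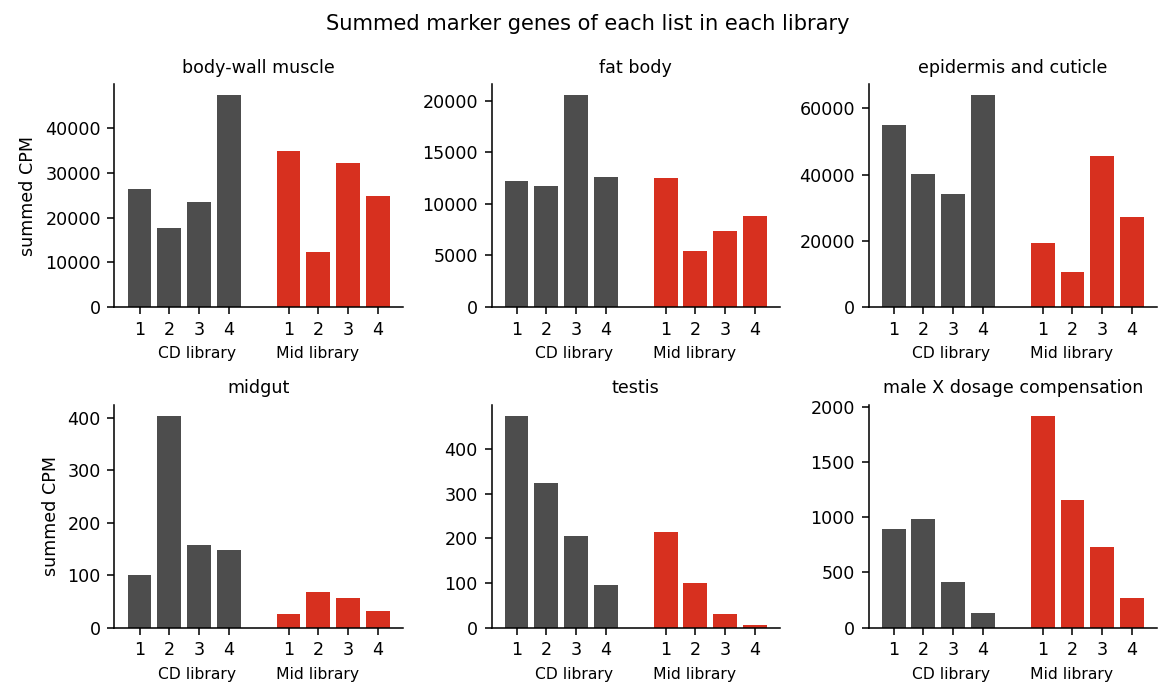
Summed CPM (y axis) of the genes of 6 marker lists in each of the 4 CD (grey) and 4 HSD Mid (red) libraries, 1 bar per library. The midgut bars at Mid lie between 26.3 and 67.7 CPM, all below the CD bars, while the muscle, fat body, epidermis, testis and dosage compensation bars of the 2 groups overlap.

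**Figure D2:**
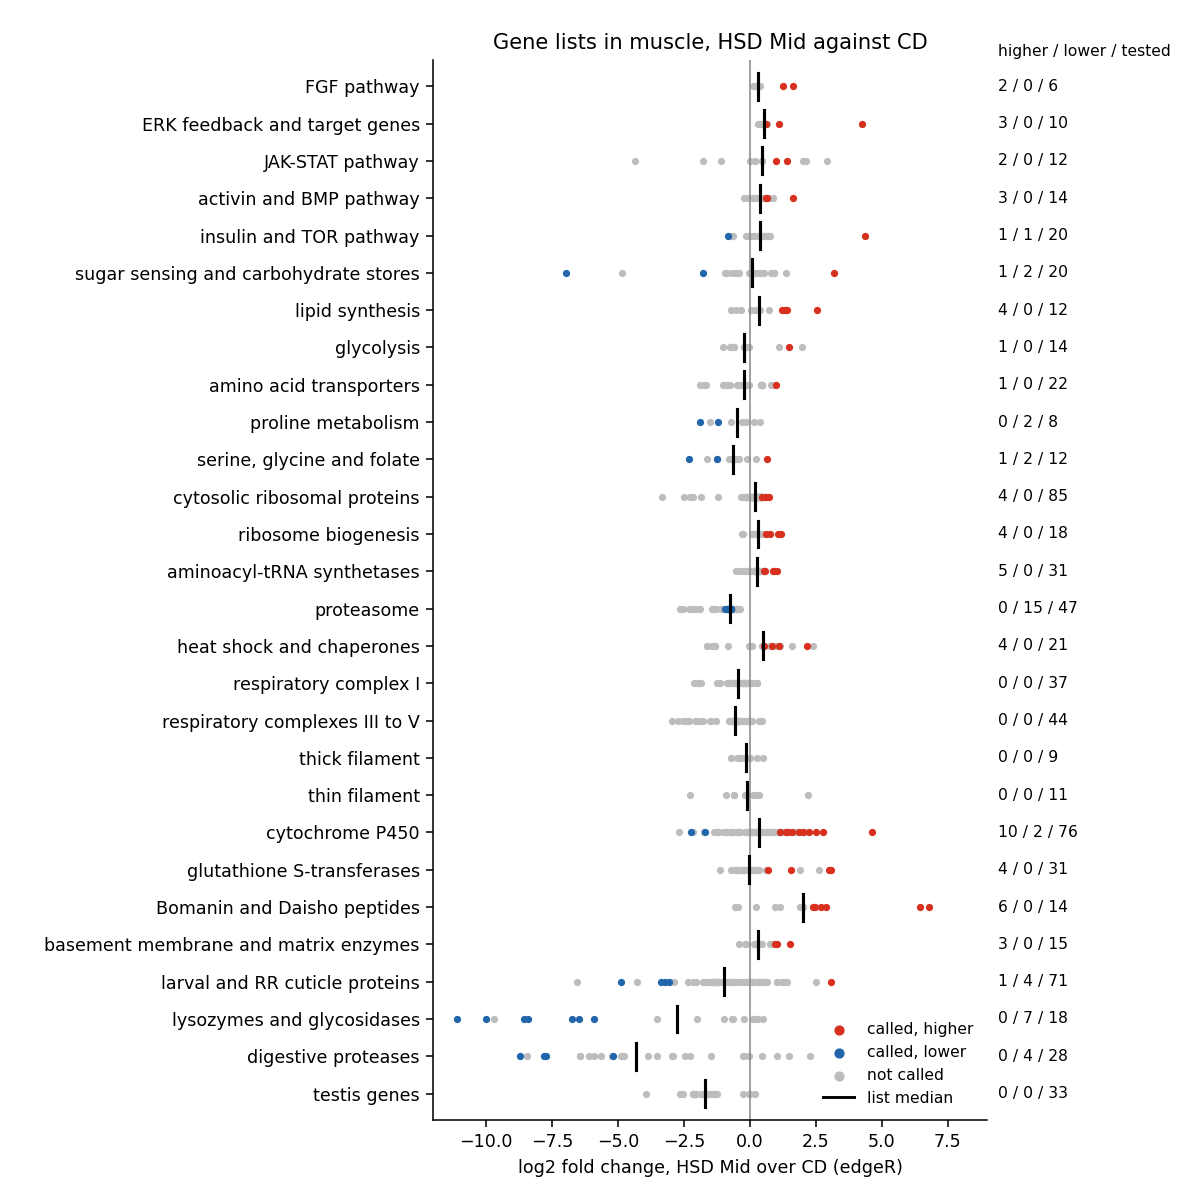
Log2 fold change (x axis, HSD Mid over CD, edgeR) of every tested member of 28 gene lists (rows), with members called higher in red, called lower in blue and not called in grey, and the list median as a black bar. The numbers at the right are the members called higher, called lower and tested. Proteasome genes all lie left of 0, and the members of the Bomanin and Daisho list that were called all lie right of 0. Genes with at most 3 counts over the 4 Mid libraries are placed at their fitted value.

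No thick or thin filament gene of the sarcomere passed the test. Of the 9 thick filament genes, 11 thin filament genes and 12 genes of calcium handling, edgeR called 0, and 0, 1 and 2 of them had an unadjusted p under 0.05. DESeq2 called 0, 1 and 1. Their median log2 fold changes were -0.14, -0.12 and 0.19. Mhc, the muscle myosin heavy chain, was at 3412, 1354, 1759.6 and 5698 CPM in the CD libraries and at 2526, 660.2, 2463 and 1795 CPM in the Mid libraries (log2 fold change -0.72 ± 0.55 SE, edgeR adjusted p = 0.429). The groups overlapped, with the lowest value in Mid 2 and the highest in CD 4. Act57B, a larval muscle actin, ran from 4891 to 11999 CPM in CD and from 2436 to 10048 CPM at Mid (log2 fold change -0.10 ± 0.47 SE, edgeR adjusted p = 0.897). The titin-like sls and the troponin T gene up gave log2 fold changes of 0.51 ± 0.28 and 0.21 ± 0.48 (SE, edgeR adjusted p = 0.276 and 0.781). Around the sarcomere, single genes rose, among them 1 of the 11 tested Z-disc and M-line genes. Lists this small cannot set 1 call apart from the 4.41% of all genes tested that were higher. Msp300, the nesprin that anchors nuclei and the Z-disc, was at 1488, 986, 575 and 1366 CPM in CD and 2415, 1825, 2078 and 2792 CPM at Mid, every Mid library above every CD library (log2 fold change 1.05 ± 0.26 SE, edgeR adjusted p = 0.0279). Dyb, the dystrobrevin of the dystrophin complex, rose as 1 of 8 tested genes of that complex (log2 fold change 1.11 ± 0.30 SE, edgeR adjusted p = 0.0425), and kon, a proteoglycan of muscle attachment, as 1 of 17 (log2 fold change 0.76 ± 0.18 SE, edgeR adjusted p = 0.0254). The transcription factor gene lmd, known for its role in fusion-competent myoblasts of the embryo, was barely detected in CD, at 0.253, 0.0472, 0.289 and 0.339 CPM, and was at 3.22, 3.27, 2.90 and 5.16 CPM at Mid (log2 fold change 3.97 ± 0.76 SE, edgeR adjusted p = 0.0114). Its call belonged to the core, whereas the calls of Msp300, Dyb and kon were lost without CD 1, CD 2, CD 3, CD 4, Mid 1 or Mid 4 (edgeR adjusted p from 0.0513 to 0.126).

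The proteasome genes that passed the test were all lower at Mid. The 26S proteasome degrades ubiquitinated protein with a core of alpha and beta rings, capped by a regulatory particle of Rpt ATPases and Rpn subunits. All 32 tested genes for the subunits used in every tissue had lower estimates at Mid, between -0.93 and -0.39, with a median of -0.73, which is 1.66-fold. Of these 32 genes 15 fell by the test, against 1.96% of all genes. Every Mid library was below every CD library for 30 of them, as it was for 728 of the 11607 genes tested. The summed level of the 32 genes was 16249, 19290, 21193 and 15889 CPM in CD 1 to CD 4 and 9566, 13185, 12571 and 9339 CPM in Mid 1 to Mid 4. The highest Mid library, Mid 2, thus stayed below the lowest CD library, CD 4. Calls came from each part of the particle: 3 of 7 genes of the alpha ring, 5 of 7 of the beta ring, 2 of 6 Rpt ATPases and 5 of 12 Rpn subunits. Prosalpha7, an alpha ring subunit, was at 493, 642, 718 and 538 CPM in CD and 296, 360.2, 374 and 272 CPM at Mid (log2 fold change -0.88 ± 0.19 SE, edgeR adjusted p = 0.0181). The ATPase gene Rpt6 was at 578, 705, 853 and 598 CPM in CD and 285, 435, 409.7 and 306 CPM at Mid (log2 fold change -0.93 ± 0.23 SE, edgeR adjusted p = 0.0297). Rpn12, of the lid, was at 288, 358, 470.1 and 373 CPM in CD and 176, 245, 247 and 167 CPM at Mid (log2 fold change -0.83 ± 0.21 SE, edgeR adjusted p = 0.0332). None of the 3 genes had a Mid library as high as a CD library. Next to Prosalpha7, the lowest adjusted p were those of the ubiquitin receptor Rpn13 and of Prosbeta7, of the beta ring, both named after their values were seen (log2 fold changes -0.74 ± 0.16 and -0.76 ± 0.17 SE, edgeR adjusted p = 0.0202 and 0.0219). Rpn1 (-0.39) and Rpn2 (-0.49), the 2 largest subunits of the base, had the highest of the Rpn estimates beside Rpn8 (-0.48), and none of these 3 was called. The direction was the same for all 32 genes with each of the other scalings and in each fit that left out a library, with medians from -0.62 to -0.86. The calls themselves depended on the libraries: edgeR called 0 of the 32 without CD 2, CD 3, Mid 1 or Mid 4, though 30, 28, 30 and 28 of them kept an unadjusted p under 0.05. It called 4 without Mid 3, 8 without CD 4 and 16 without CD 1, and DESeq2 with all libraries called 31. With the replicate number as a block in the fit, edgeR called 4 of the 47 tested proteasome genes, paralogues included. The edgeR adjusted p of Prosalpha7 was 0.0564, 0.0678, 0.0635 and 0.0648 without CD 2, CD 3, Mid 1 and Mid 4. At Early the 32 genes summed to between 7263 and 11907 CPM and at Late to between 5875 and 9333 CPM. The 15 paralogues named with R or T, which are known from the male germ line, were low, with CD means of at most 22.3 CPM, and edgeR and DESeq2 called 0 of them, with 0 at an unadjusted p under 0.05 (median -1.88). They moved beside the testis markers given above.

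**Figure D3:**
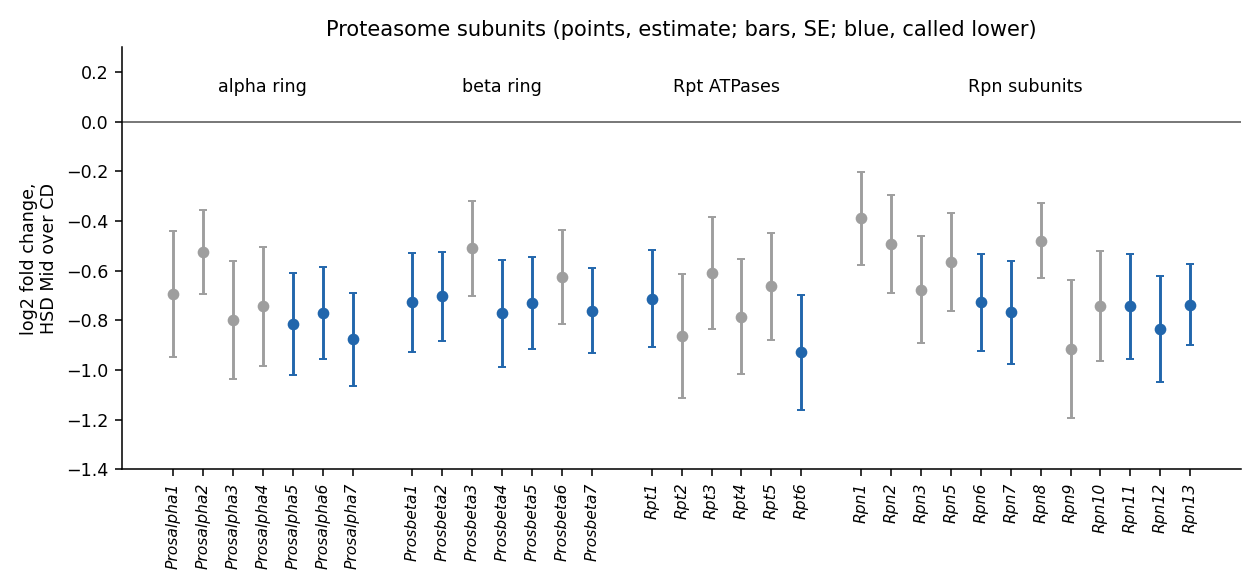
Log2 fold change (y axis, HSD Mid over CD, edgeR estimate with its SE as bars) of the 32 proteasome subunit genes used in every tissue, by part of the particle. All points lie between -0.93 and -0.39, and the 15 blue points were called lower.

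Other routes of protein turnover had few calls, where 4.41% of all genes tested were higher and 1.96% lower. Of 30 autophagy genes 2 fell and 0 rose: Atg3, the E2-like enzyme that conjugates Atg8, was at 71.2, 72.3, 95.9 and 71.5 CPM in CD and 54.4, 54.6, 55.7 and 47.9 CPM at Mid (log2 fold change -0.55 ± 0.13 SE, edgeR adjusted p = 0.0243). Atg4a, the protease that processes Atg8, was at 148, 158, 157 and 169 CPM in CD and 117, 120.1, 119.8 and 105 CPM at Mid (log2 fold change -0.45 ± 0.11 SE, edgeR adjusted p = 0.028). Both calls were lost in most fits that left out a library, without CD 2, CD 3, CD 4, Mid 1, Mid 2, Mid 3 or Mid 4 (edgeR adjusted p from 0.0539 to 0.102). Of 26 genes of the vacuolar proton pump 1 rose, the membrane subunit Vha100-2 (log2 fold change 0.95 ± 0.21 SE, edgeR adjusted p = 0.0215). Chaperones showed more calls, with 4 of 21 higher and 0 lower and a list median of 0.51. Hsp68, an inducible Hsp70, was at 127, 239, 166 and 162 CPM in CD and 1072, 383, 611 and 1050.4 CPM at Mid (log2 fold change 2.17 ± 0.52 SE, edgeR adjusted p = 0.0257), so that the lowest Mid library, Mid 2, was still above the highest CD library. Hsp83, the fly Hsp90, rose from 1415 ± 191 CPM (SD, n = 4) to 2549.8 ± 481 CPM (log2 fold change 0.85 ± 0.18 SE, edgeR adjusted p = 0.0172). The BAG co-chaperone stv, which acts with Hsp70 at the muscle Z-disc, gave a log2 fold change of 1.11 ± 0.23 (SE, edgeR adjusted p = 0.0168). The fourth was the DnaJ gene Droj2, named after its values were seen (log2 fold change 0.55 ± 0.12 SE, edgeR adjusted p = 0.0186). These calls, and that of Vha100-2, were lost without CD 2, CD 3, CD 4, Mid 1 or Mid 4 (edgeR adjusted p from 0.0518 to 0.0771). Of 16 genes of the unfolded protein and integrated stress response 1 rose. This was trbl, a pseudokinase that restrains Akt and marks proteins for degradation, at 49.8, 41.2, 42.6 and 61.4 CPM in CD and 133, 107, 78.8 and 135 CPM at Mid (log2 fold change 1.22 ± 0.24 SE, edgeR adjusted p = 0.012), a call of the core.

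Calls among genes of protein synthesis were all higher, where 4.41% of all genes tested were higher. Of 31 aminoacyl-tRNA synthetases, which charge tRNAs, 5 rose and 0 fell, with a list median of 0.28 (median of all genes -0.06). With upper-quartile normalization 3 rose and the list median was 0.16 (median of all genes -0.18). IleRS was at 95.8, 79.8, 68.6 and 84.2 CPM in CD and 166, 130.3, 149 and 158 CPM at Mid (log2 fold change 0.88 ± 0.16 SE, edgeR adjusted p = 0.0084). GluProRS was at 121, 77.6, 79.3 and 82.7 CPM in CD and 183, 141, 171 and 185 CPM at Mid (log2 fold change 0.92 ± 0.18 SE, edgeR adjusted p = 0.0116). Both were free of overlap and belonged to the core. The other calls were ValRS (1.03 ± 0.25, SE), GlyRS (0.53 ± 0.13) and AlaRS (0.55 ± 0.15), the last 2 named after their values were seen, and they were lost without CD 2, CD 3, CD 4, Mid 1, Mid 3 or Mid 4 (edgeR adjusted p from 0.0523 to 0.126). Of 18 ribosome biogenesis genes 4 rose and 0 fell, and 3 rose with upper-quartile normalization. Non1, a nucleolar GTPase, was at 966, 854, 1063 and 1094 CPM in CD and 2753, 2214, 1698 and 2239.7 CPM at Mid (log2 fold change 1.16 ± 0.19 SE, edgeR adjusted p = 0.00756). It was free of overlap and in the core. Myc, the growth-promoting transcription factor, was at 199, 152, 90.5 and 224 CPM in CD and 338, 347, 307 and 412 CPM at Mid (log2 fold change 1.08 ± 0.24 SE, edgeR adjusted p = 0.0223). Polr1A, the largest subunit of RNA polymerase I, was at 38.3, 29.1, 23.9 and 23.9 CPM in CD and 47.7, 42.1, 52.6 and 50.7 CPM at Mid (log2 fold change 0.74 ± 0.17 SE, edgeR adjusted p = 0.0223). Nopp140, a nucleolar chaperone named after its values were seen, gave 0.61 ± 0.17 (SE, edgeR adjusted p = 0.0467). The calls of Myc, Polr1A and Nopp140 were lost without CD 2, CD 3, CD 4, Mid 1, Mid 3 or Mid 4 (edgeR adjusted p from 0.0503 to 0.142).

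Of 15 translation factors 3 rose and 0 fell: eEF2, the elongation factor that moves the ribosome (log2 fold change 0.65 ± 0.15 SE, edgeR adjusted p = 0.0242), eIF4A, the helicase of the cap complex (log2 fold change 0.50 ± 0.11 SE, edgeR adjusted p = 0.0228), and eIF5B, which joins the subunits (log2 fold change 0.46 ± 0.11 SE, edgeR adjusted p = 0.0307). With upper-quartile normalization 1 of the 15 rose, and the list median went from 0.24 to 0.13. Cytosolic ribosomal protein genes had 4 of 85 members higher and 0 lower, where 4.41% of all genes were higher, so the share was near that of all genes. Of the 79 members with a mean of at least 10 CPM, 68 had estimates above 0, with a median of 0.22, which was 0.09 with upper-quartile normalization. The calls were RpL24-like (0.73 ± 0.17, SE), RpL3 (0.60 ± 0.14), RpL4 (0.57 ± 0.13) and RpL37-1 (0.45 ± 0.12), the last named after its values were seen. RpL3 was at 2457, 1889, 2547 and 2566 CPM in CD and 3863, 3182.50, 3629.7 and 3644 CPM at Mid. All 7 calls of these 2 lists were lost in part of the fits, without CD 1, CD 2, CD 3, CD 4, Mid 1, Mid 2, Mid 3 or Mid 4 (edgeR adjusted p from 0.051 to 0.124). Mitochondrial ribosomal protein genes (70 tested, median -0.14), DNA replication and endocycle genes (24) and mitosis genes (16) had 0 calls by edgeR, with 3, 4 and 0 genes at an unadjusted p under 0.05. DESeq2 called 0, 1 and 0 of them.

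A few genes of lipid synthesis and sugar response rose steeply. Of 12 lipid synthesis genes 4 rose and 0 fell, against 4.41% of all genes higher. FASN2, a fatty acid synthase, was at 60.4, 41.5, 16.4 and 64.9 CPM in CD and 334, 213, 259.9 and 267 CPM at Mid (log2 fold change 2.55 ± 0.42 SE, edgeR adjusted p = 0.00756). Desat1, the desaturase that makes monounsaturated fatty acids, was at 412, 444, 389.7 and 425 CPM in CD and 1411, 856, 807 and 1081 CPM at Mid (log2 fold change 1.31 ± 0.25 SE, edgeR adjusted p = 0.0104). Every Mid library was above every CD library for these genes of fatty acid synthesis, which both belonged to the core. Which cells of the dissected tissue made the transcripts of the lipid genes was not tested. ACC, which commits acetyl-CoA to fat synthesis, was at 103, 71.2, 61.0 and 114 CPM in CD and 329, 185, 172 and 231 CPM at Mid (log2 fold change 1.39 ± 0.32 SE, edgeR adjusted p = 0.0243). AcCoAS, which makes acetyl-CoA from acetate and was named after its values were seen, was at 65.2, 90.3, 102 and 77.4 CPM in CD and 245, 137, 159 and 240.1 CPM at Mid (log2 fold change 1.22 ± 0.29 SE, edgeR adjusted p = 0.0249). The calls of ACC and AcCoAS were lost without CD 2, CD 3, CD 4, Mid 1 or Mid 4 (edgeR adjusted p from 0.0501 to 0.0791). Among 20 genes of sugar sensing and carbohydrate stores 1 rose and 2 fell. The rise was that of sug, which encodes the Gli-like factor Sugarbabe. It was at 1.52, 1.32, 0.482 and 1.76 CPM in CD and 14.6, 7.68, 7.60 and 16.6 CPM at Mid, a gap that no library bridged (log2 fold change 3.17 ± 0.45 SE, edgeR adjusted p = 0.0063, core). The amylase gene Amy-p, also 1 of the midgut markers, was at 6.78, 15.3, 0.193 and 0.0678 CPM in CD and at 0, 0.0425, 0.0376 and 0.0712 CPM at Mid, with overlap (log2 fold change -6.99 ± 1.82 SE, edgeR adjusted p = 0.0358, -5.74 without CD 2). The alpha-glucosidase gene tobi was at 5.16, 24.6, 14.7 and 14.6 CPM in CD and 6.93, 4.84, 2.97 and 2.53 CPM at Mid (log2 fold change -1.78 ± 0.48 SE, edgeR adjusted p = 0.0421). Both were lost without CD 2, CD 3, CD 4, Mid 1, Mid 2, Mid 3 or Mid 4 (edgeR adjusted p from 0.0601 to 0.13). Treh, which splits trehalose and was named after its values were seen, was at 261, 229.8, 234 and 202 CPM in CD and 68.8, 151, 168 and 88.0 CPM at Mid and missed the threshold (log2 fold change -0.96 ± 0.27 SE, edgeR adjusted p = 0.0514).

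CG18609, of the fatty acid elongase family and in none of the lists, was at 4.10, 8.396, 5.68 and 5.90 CPM in CD and 129, 101, 55.5 and 49.8 CPM at Mid (log2 fold change 3.80 ± 0.48 SE, edgeR adjusted p = 0.00498). CG11438, of the lipid phosphate phosphatase family and also outside the lists, was at 5.61, 5.19, 6.93 and 5.36 CPM in CD and 116, 57.8, 28.9 and 23.1 CPM at Mid (log2 fold change 3.29 ± 0.64 SE, edgeR adjusted p = 0.0124, 2.67 without Mid 1). CG1774, of the acyl-CoA thioesterase family and likewise outside them, was at 7.23, 4.72, 4.62 and 3.05 CPM in CD and 52.8, 25.3, 20.2 and 50.3 CPM at Mid (log2 fold change 2.91 ± 0.55 SE, edgeR adjusted p = 0.0111). All 3 were free of overlap and in the core. Of 18 genes of lipolysis and beta-oxidation 2 rose: the lipase gene Lip1, at 0.708, 0.425, 0.482 and 0.203 CPM in CD and 3.84, 2.50, 3.99 and 4.24 CPM at Mid (log2 fold change 2.98 ± 0.52 SE, edgeR adjusted p = 0.00828, core), and Hsl, the hormone-sensitive lipase (log2 fold change 0.61 ± 0.17 SE, edgeR adjusted p = 0.0447). In glycolysis 1 of 14 genes rose and 0 fell. It was Gpo1, the mitochondrial glycerol-3-phosphate dehydrogenase, at 32.0, 21.1, 45.6 and 57.1 CPM in CD and 151, 69.2, 107 and 109.7 CPM at Mid (log2 fold change 1.49 ± 0.39 SE, edgeR adjusted p = 0.0378). Of the other 13 genes 11 had estimates below 0, such as Gapdh1, named after its values were seen, at -1.01 ± 0.42 (SE, edgeR adjusted p = 0.153). The calls of Hsl and Gpo1 were lost without CD 1, CD 2, CD 3, CD 4, Mid 1, Mid 3 or Mid 4 (edgeR adjusted p from 0.0527 to 0.132).

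**Figure D4:**
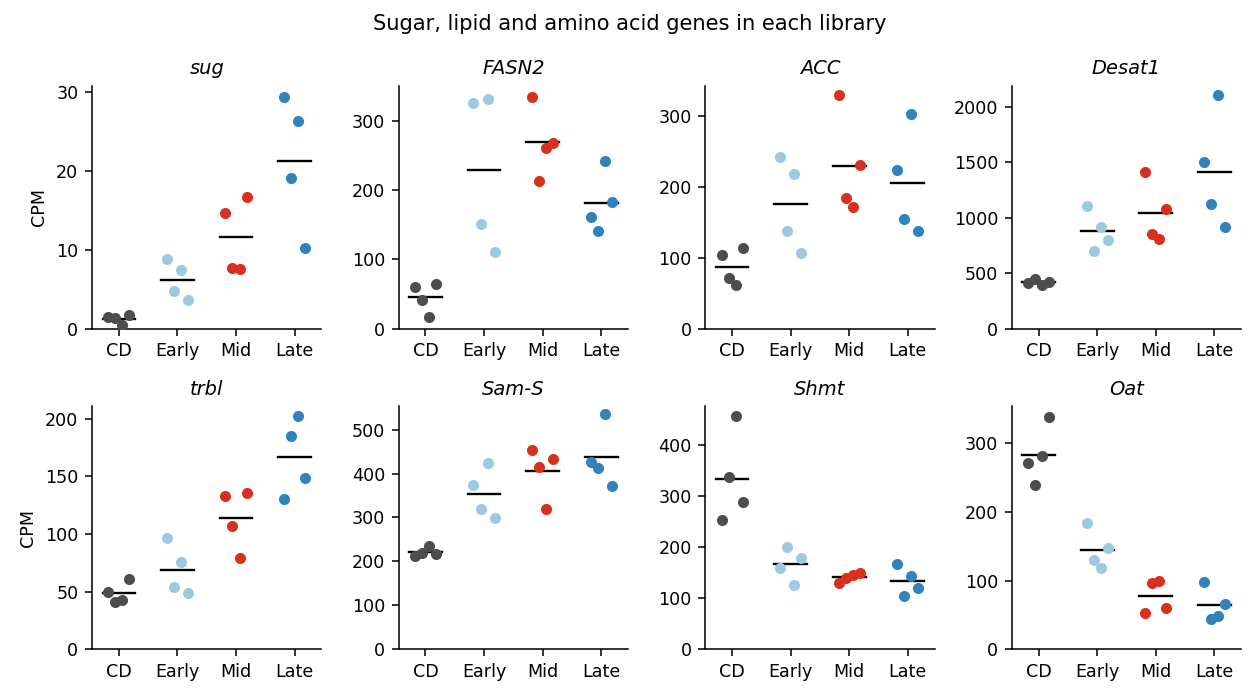
CPM (y axis, from 0) of 8 genes of sugar, lipid and amino acid metabolism in each library of CD, HSD Early, HSD Mid and HSD Late (4 points per condition, bar at the mean). At Mid, sug, FASN2, ACC, Desat1, trbl and Sam-S lie above and Shmt and Oat below all 4 CD libraries.

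Mitochondrial energy genes had 0 calls by edgeR, in 37 genes of complex I, 44 of complexes III to V and 18 of the tricarboxylic acid cycle. Of these 6, 6 and 4 had an unadjusted p under 0.05, and DESeq2 called 2, 1 and 2, all lower. The estimates of the respiratory genes leaned low: among members with a mean of at least 10 CPM, 27 of 31 for complex I and 26 of 31 for complexes III to V were below 0, with medians of -0.35 and -0.44, and with the lowest adjusted p of 0.0686 and 0.0707. Summed over the list, complex I genes were at 1898, 1944, 2736 and 3029.6 CPM in the CD libraries and 2173, 1640.0, 2191 and 1993 CPM in the Mid libraries, which overlapped.

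Amino acid metabolism showed calls in both directions. Among genes that make or use serine and glycine, 1 of 12 rose and 2 fell, with a median of -0.65. Shmt, which interconverts serine and glycine and charges the folate pool, was at 253, 338, 458 and 289 CPM in CD and 131, 140.01, 145 and 149 CPM at Mid (log2 fold change -1.24 ± 0.20 SE, edgeR adjusted p = 0.00756, core). CG3999, the glycine decarboxylase of the glycine cleavage system, was at 59.4, 60.9, 90.2 and 37.2 CPM in CD and 14.4, 11.2, 9.44 and 14.7 CPM at Mid (log2 fold change -2.32 ± 0.50 SE, edgeR adjusted p = 0.0186). aay, the phosphatase that makes serine, was at 65.6, 85.0, 73.4 and 74.4 CPM in CD and 129, 116, 104 and 118 CPM at Mid (log2 fold change 0.64 ± 0.17 SE, edgeR adjusted p = 0.0334). All 3 were free of overlap, and the calls of CG3999 and aay were lost without CD 1, CD 2, CD 3, CD 4, Mid 1 or Mid 4 (edgeR adjusted p from 0.0511 to 0.099). In the methionine cycle 2 of 11 rose. Sam-S, which makes S-adenosylmethionine, was at 213, 219, 236 and 217 CPM in CD and 454, 414, 319 and 433 CPM at Mid (log2 fold change 0.87 ± 0.15 SE, edgeR adjusted p = 0.0084, core). Cbs, which takes homocysteine to cystathionine, gave 0.75 ± 0.18 (SE, edgeR adjusted p = 0.0258) and was lost without CD 2, CD 3, Mid 1 or Mid 4 (edgeR adjusted p from 0.0694 to 0.0805).

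Of 8 proline metabolism genes 2 fell and 0 rose. Oat, the ornithine aminotransferase that feeds proline synthesis, was at 271, 239, 282 and 339 CPM in CD and 52.5, 96.5, 98.7 and 60.3 CPM at Mid (log2 fold change -1.88 ± 0.27 SE, edgeR adjusted p = 0.0063), and it was in the core. P5cr-2, a pyrroline-5-carboxylate reductase, was at 17.4, 17.2, 44.3 and 28.6 CPM in CD and 7.98, 15.4, 10.3 and 12.5 CPM at Mid (log2 fold change -1.21 ± 0.32 SE, edgeR adjusted p = 0.037) and lost its call without CD 3, CD 4, Mid 1, Mid 3 or Mid 4 (edgeR adjusted p from 0.0603 to 0.117). The sister gene P5cr (-0.13 ± 0.20, SE) and slgA, the proline dehydrogenase that breaks proline down (-0.30 ± 0.22), were not called. Of 22 amino acid transporter genes 1 rose. This was path, an SLC36-family transporter, at 61.7, 72.5, 64.7 and 80.3 CPM in CD and 165, 135, 82.1 and 176 CPM at Mid, all Mid libraries above CD by a narrow margin in Mid 3 (log2 fold change 1.00 ± 0.25 SE, edgeR adjusted p = 0.0332), a call lost without CD 1, CD 2, CD 3, CD 4, Mid 1 or Mid 4 (edgeR adjusted p from 0.0541 to 0.107). It went on to 389.8 ± 128 CPM at Late (SD, n = 4). The related acs (CG1139) was at 75.4, 137, 157 and 88.6 CPM in CD and 33.3, 183, 36.3 and 21.6 CPM at Mid (log2 fold change -0.74 ± 0.61 SE, edgeR adjusted p = 0.455), where Mid 2 was the highest of the 8 libraries and the other Mid libraries were below every CD library. Without Mid 2 its log2 fold change was -1.84 (edgeR adjusted p = 0.034). For slif, a cationic amino acid transporter, CD 4 stood at 128 CPM against 53.5 to 57.3 CPM at Mid, and the estimate of -0.03 became 0.76 (edgeR adjusted p = 0.0312) without CD 4. CG8785 (-1.73 ± 0.81, SE, and -0.40 without CD 4), mnd (-0.27 ± 0.25) and JhI-21 (0.45 ± 0.31) were not called.

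FGF signalling genes and ERK targets leaned higher. FGFs act through the receptors Breathless and Heartless, which activate the Ras-ERK cascade, and the cascade switches on its own inhibitors. Of 6 FGF pathway genes 2 rose and 0 fell, and all 6 had estimates above 0 (5 with upper-quartile normalization, where that of ths turned). The Heartless ligand gene pyr was at 31.2, 29.9, 15.8 and 38.6 CPM in CD and 131, 76.9, 63.8 and 88.1 CPM at Mid (log2 fold change 1.64 ± 0.30 SE, edgeR adjusted p = 0.00943), free of overlap and in the core. The Breathless ligand gene bnl was at 8.90, 15, 6.26 and 10.4 CPM in CD and 14.4, 41.2, 14.8 and 26.1 CPM at Mid (log2 fold change 1.25 ± 0.32 SE, edgeR adjusted p = 0.0346). CD 2 was above Mid 1 and Mid 3, and the call was lost without CD 1, CD 3, CD 4, Mid 2 or Mid 4 (edgeR adjusted p from 0.0557 to 0.106). At Late bnl was at 15.1 ± 0.967 CPM (SD, n = 4). The second Heartless ligand, ths (0.11 ± 0.41, SE, edgeR adjusted p = 0.873), and the receptor gene htl (0.19 ± 0.19, edgeR adjusted p = 0.532) were not called. All 10 tested ERK feedback and target genes had estimates above 0, with a median of 0.54, and 3 rose. Ets21C, an ETS factor induced by ERK and JNK activity, was at 0.809, 2.31, 1.54 and 6.10 CPM in CD and 66.9, 36.9, 22.5 and 79.6 CPM at Mid (log2 fold change 4.26 ± 0.81 SE, edgeR adjusted p = 0.0113, 5.04 without CD 4), a call of the core. The secreted EGFR antagonist aos was at 8.50, 7.69, 8.76 and 6.17 CPM in CD and 19.5, 14.1, 12.2 and 21.4 CPM at Mid (log2 fold change 1.11 ± 0.25 SE, edgeR adjusted p = 0.0224). Mkp3, the phosphatase of ERK, was at 27.1, 21.98, 19.0 and 26.2 CPM in CD and 30.1, 41.2, 29.7 and 44.1 CPM at Mid (log2 fold change 0.62 ± 0.15 SE, edgeR adjusted p = 0.0255). Both had no overlap and lost their calls without CD 2, CD 3, CD 4, Mid 1 or Mid 4 (edgeR adjusted p from 0.0501 to 0.0892). The feedback inhibitor sty, or sprouty, missed the threshold (log2 fold change 0.65 ± 0.19 SE, edgeR adjusted p = 0.0593), as did aop (0.32 ± 0.23) and pnt (0.36 ± 0.21). In the cascade itself 1 of 19 genes rose, the EGFR ligand gene Krn (log2 fold change 0.57 ± 0.14 SE, edgeR adjusted p = 0.0273), and it was lost without CD 2, CD 3, CD 4, Mid 1 or Mid 4 (edgeR adjusted p from 0.067 to 0.103). Ras85D (-0.18 ± 0.14) and Csk (0.42 ± 0.26), the genes altered in the tumours, were not called in the muscle. As the tumours arise in the eye tissue, this does not check the genotype. The paper also reports secondary tumours in some of the animals on HSD, and whether their cells entered these samples was not tested.

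**Figure D5:**
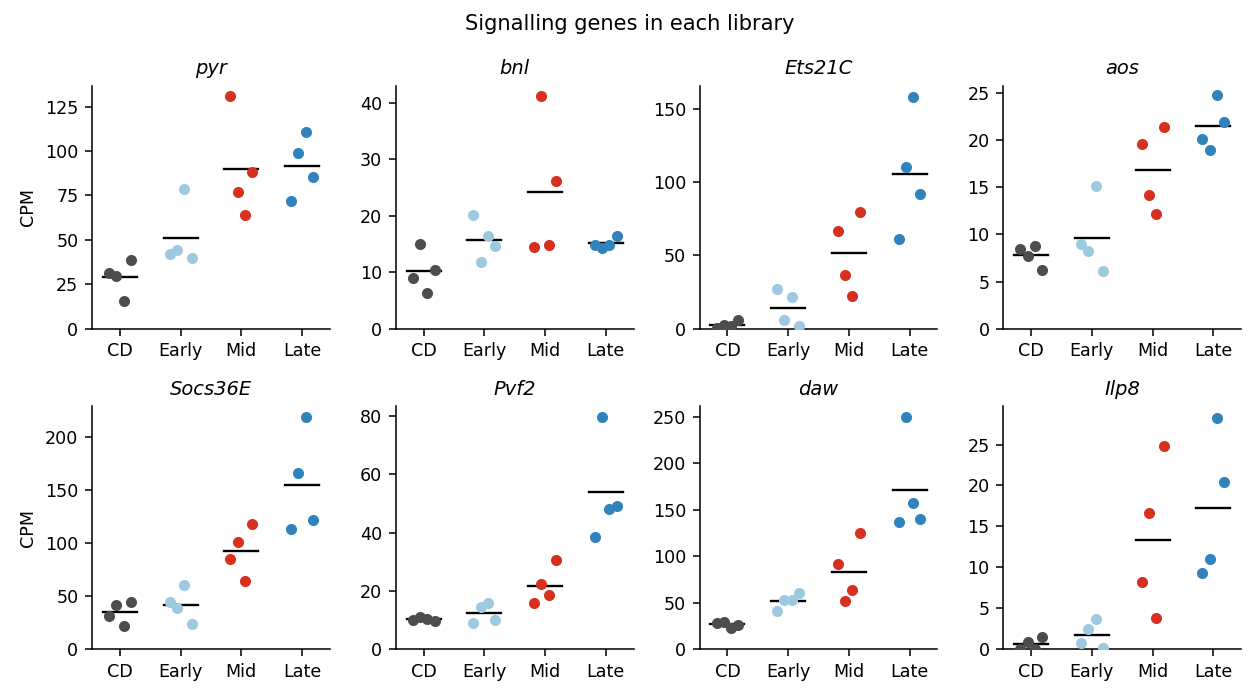
CPM (y axis, from 0) of 8 signalling genes in each library of CD, HSD Early, HSD Mid and HSD Late (4 points per condition, bar at the mean). All 4 Mid libraries lie above all 4 CD libraries for each gene except bnl, where CD 2 is above 2 of the Mid libraries.

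Other signalling pathways had few calls, where 4.41% of all genes tested were higher and 1.96% lower. In the activin and BMP pathway 3 of 14 genes rose and 0 fell. The activin-like ligand gene daw, known in larvae as a signal made on sugar, was at 28.7, 29.1, 22.4 and 26.4 CPM in CD and 92.1, 52.3, 63.3 and 125 CPM at Mid (log2 fold change 1.64 ± 0.26 SE, edgeR adjusted p = 0.00756, core). The BMP ligand gene dpp was at 34.1, 27.97, 21.2 and 31.5 CPM in CD and 40.3, 39.9, 48.1 and 52.5 CPM at Mid (log2 fold change 0.65 ± 0.15 SE, edgeR adjusted p = 0.0247). Dad, the BMP feedback inhibitor, was at 45.4, 40.3, 29.9 and 39.1 CPM in CD and 58.7, 54.5, 60.2 and 64.7 CPM at Mid (log2 fold change 0.62 ± 0.15 SE, edgeR adjusted p = 0.0249). None of the 3 overlapped between groups. In the JAK-STAT pathway 2 of 12 rose. Socs36E, the pathway's feedback inhibitor, was at 31.4, 41.6, 22.3 and 44.7 CPM in CD and 85.4, 101, 64.7 and 118 CPM at Mid (log2 fold change 1.40 ± 0.30 SE, edgeR adjusted p = 0.0189). The receptor gene dome was at 67.8, 51.8, 31.8 and 54.9 CPM in CD and 103, 105, 80.0 and 117 CPM at Mid (log2 fold change 0.97 ± 0.27 SE, edgeR adjusted p = 0.046). The ligand genes upd1, upd2 and upd3, named after their values were seen, were at 1.07 ± 0.617, 0.526 ± 0.8287 and 1.02 ± 1.13 CPM in CD and at 4.69 ± 2.68, 4.05 ± 2.76 and 4.08 ± 1.98 CPM at Mid (SD, n = 4), and none was called (edgeR adjusted p = 0.0539, 0.108 and 0.171). Of the 4 genes of the PVR pathway 2 rose. The ligand gene Pvf2 was at 10.2, 11.1, 10.5 and 9.76 CPM in CD and 15.8, 22.3, 18.7 and 30.8 CPM at Mid (log2 fold change 1.07 ± 0.25 SE, edgeR adjusted p = 0.0243). The receptor gene Pvr was at 147, 117, 114.80 and 149 CPM in CD and 267, 224, 192 and 228 CPM at Mid (log2 fold change 0.78 ± 0.19 SE, edgeR adjusted p = 0.0283). In the JNK pathway 1 of 16 rose, kay, the fly Fos (log2 fold change 0.90 ± 0.23 SE, edgeR adjusted p = 0.033). Except for daw, these calls were lost without CD 2, CD 3, CD 4, Mid 1, Mid 2 or Mid 4 (edgeR adjusted p from 0.0506 to 0.124).

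Of 20 insulin and TOR pathway genes 1 rose and 1 fell. Ilp8, a relaxin-like peptide known from damaged or tumorous discs as a signal that delays metamorphosis, was at 0, 0.896, 0.0963 and 1.56 CPM in CD and 8.16, 16.6, 3.84 and 24.8 CPM at Mid (log2 fold change 4.36 ± 1.09 SE, edgeR adjusted p = 0.0316, 5.19 without CD 4). The groups did not overlap, and the disc and tumour markers, 8 genes, summed to 44.8 to 129.9 CPM in CD and 27.0 to 104 CPM at Mid, which overlapped. REPTOR-BP, the partner of the TOR-repressed factor REPTOR, fell (log2 fold change -0.83 ± 0.19 SE, edgeR adjusted p = 0.0242), with CD 1 inside the range of the Mid libraries. Both calls were lost without CD 2, CD 3, CD 4, Mid 1, Mid 2, Mid 3 or Mid 4 (edgeR adjusted p from 0.0509 to 0.0905). Thor, the 4E-BP repressor of translation, was at 1074, 939, 960.0 and 1799.7 CPM in CD and 1875, 1613, 1397 and 1455 CPM at Mid (log2 fold change 0.41 ± 0.24 SE, edgeR adjusted p = 0.301). ImpL2, a secreted insulin antagonist, gave 0.34 ± 0.28 (SE, edgeR adjusted p = 0.461). InR had no match by symbol. Adgf-C, an adenosine deaminase-related growth factor, was 1 of 12 genes of its list to rise (log2 fold change 1.76 ± 0.39 SE, edgeR adjusted p = 0.02). It was lost without CD 2, Mid 1 or Mid 4 (edgeR adjusted p from 0.0523 to 0.071).

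Ecdysone times moulting and metamorphosis, so its response genes bear on the stage of the 2 groups. Of 19 tested, 1 rose and 2 fell, and the list median was -0.58. The nuclear receptor gene ftz-f1 was at 24.4, 20.4, 12.5 and 27.3 CPM in CD and 46.5, 46.1, 45.1 and 58.4 CPM at Mid (log2 fold change 1.21 ± 0.21 SE, edgeR adjusted p = 0.00831, core). MsrA, the ecdysone-induced methionine sulphoxide reductase, was at 431, 251, 318 and 415 CPM in CD and 82.1, 89.1, 206 and 113 CPM at Mid (log2 fold change -1.53 ± 0.32 SE, edgeR adjusted p = 0.0158). The nuclear receptor gene Hr39 was at 61.7, 56.9, 43.5 and 57.2 CPM in CD and 28.3, 38.3, 39.0 and 41.4 CPM at Mid (log2 fold change -0.58 ± 0.16 SE, edgeR adjusted p = 0.0473). None of the 3 overlapped between groups. The calls of MsrA and Hr39 were lost without CD 1, CD 2, Mid 1, Mid 2 or Mid 4 (edgeR adjusted p from 0.0544 to 0.144).

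Cyp4e3 and Cyp6w1 were the detoxification genes among the 12 largest rises named by size. Of 76 cytochrome P450 genes 10 rose, by log2 fold changes of 1.15 to 4.61, and 2 fell. Of all genes tested 4.41% were higher and 1.96% lower, so the share that fell was near that of all genes. Cyp4e3 was at 30.1, 14.9, 19.8 and 18.9 CPM in CD and 1052, 319.9, 282 and 394 CPM at Mid (log2 fold change 4.61 ± 0.61 SE, edgeR adjusted p = 0.00498, core, 3.99 without Mid 1), and even its lowest Mid library, Mid 3, was far above the highest CD library, CD 1. Cyp6w1 was at 4.35, 11.3, 9.05 and 4.95 CPM in CD and 93.8, 53.7, 27.5 and 28.2 CPM at Mid (log2 fold change 2.78 ± 0.61 SE, edgeR adjusted p = 0.0199). Cyp311a1 was at 1.67, 2.26, 0.963 and 2.85 CPM in CD and 22.1, 6.92, 9.25 and 5.70 CPM at Mid (log2 fold change 2.50 ± 0.61 SE, edgeR adjusted p = 0.0272, 1.91 without Mid 1). Neither overlapped between groups, which for Cyp6w1 was required by its choice among the largest rises. Cyp4g1, which makes cuticular hydrocarbons in oenocytes and was named after its values were seen, was at 1062, 950.3, 737 and 1249 CPM in CD and 2853, 2063, 2684 and 2843 CPM at Mid (log2 fold change 1.39 ± 0.23 SE, edgeR adjusted p = 0.00828, core). The marker lists held none for oenocytes, so the share of these cells in the samples was not checked. The P450 genes that fell were Cyp12d1-p, at 9.21, 15, 17.7 and 10.4 CPM in CD and 3.53, 2.63, 2.60 and 2.24 CPM at Mid (log2 fold change -2.25 ± 0.33 SE, edgeR adjusted p = 0.0063, core), and Cyp6g1 (log2 fold change -1.70 ± 0.39 SE, edgeR adjusted p = 0.0238). Cyp12d1-p has a near-identical neighbour, so the split of its reads is uncertain. The calls of Cyp6w1, Cyp311a1 and Cyp6g1 were lost without CD 2, CD 3 or Mid 1 (edgeR adjusted p from 0.0513 to 0.099).

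Of 31 glutathione S-transferases 4 rose and 0 fell, against 4.41% of all genes higher. GstE6 was at 12.0, 14.7, 13.0 and 17.4 CPM in CD and 54.0, 42.0, 27.6 and 43.9 CPM at Mid (log2 fold change 1.55 ± 0.28 SE, edgeR adjusted p = 0.00943, core), while GstD5 (3.08 ± 0.82, SE, and 3.84 without CD 4), GstD3 (2.98 ± 0.65) and GstE1 (0.69 ± 0.15, named after its values were seen) lost their calls without CD 1, CD 2, CD 3, Mid 1, Mid 2 or Mid 4 (edgeR adjusted p from 0.0573 to 0.115). Of 23 UDP-glycosyltransferases 2 rose, Ugt37C2 (log2 fold change 3.75 ± 0.79 SE, edgeR adjusted p = 0.0169, 2.98 without Mid 1) and Ugt302C1 (log2 fold change 1.48 ± 0.35 SE, edgeR adjusted p = 0.0255), both lost without CD 2, CD 3, Mid 1 or Mid 4 (edgeR adjusted p from 0.0555 to 0.0892). Of 20 genes of the oxidative stress response 1 rose and 2 fell. Gclc, the catalytic subunit for glutathione synthesis, gave 0.76 ± 0.20 (SE, edgeR adjusted p = 0.034). Ho, the haem oxygenase, was at 127, 197, 240.0 and 183 CPM in CD and 48.9, 111, 62.2 and 42.7 CPM at Mid (log2 fold change -1.49 ± 0.34 SE, edgeR adjusted p = 0.0218). The glutathione peroxidase-like gene Gtpx was at 463, 562, 719 and 561 CPM in CD and 335, 327, 323 and 260.1 CPM at Mid (log2 fold change -0.89 ± 0.20 SE, edgeR adjusted p = 0.0231). These 3 calls were lost without CD 1, CD 2, CD 3, CD 4, Mid 1, Mid 2 or Mid 4 (edgeR adjusted p from 0.0562 to 0.1). Among other genes with the largest rises, the serpin gene Spn47C was at 14.3, 13.9, 15.6 and 22.8 CPM in CD and 298, 100.2, 108 and 121 CPM at Mid (log2 fold change 3.23 ± 0.51 SE, edgeR adjusted p = 0.00756, core). The TRP channel gene wtrw was at 5.11, 4.76, 3.08 and 5.15 CPM in CD and 46.8, 31.7, 16.9 and 23.5 CPM at Mid (log2 fold change 2.71 ± 0.49 SE, edgeR adjusted p = 0.00943, core). CG8654, of the SLC22 transporter family, was at 8.24, 7.22, 7.42 and 3.93 CPM in CD and 93.7, 28.3, 17.9 and 28.7 CPM at Mid (log2 fold change 2.65 ± 0.72 SE, edgeR adjusted p = 0.0429). The last was lost without CD 1, CD 2, CD 3, CD 4, Mid 1 or Mid 4 (edgeR adjusted p from 0.0555 to 0.146) and was 1.90 without Mid 1.

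Calls among immune peptide genes were mostly those of Bomanins and Daishos. Bomanins and Daishos are short secreted peptides made on Toll signalling. Of 14 tested 6 rose and 0 fell, with a list median of 2.02. Dso1 was at 0, 0.896, 1.93 and 1.42 CPM in CD and 111, 284, 11.2 and 35.1 CPM at Mid (log2 fold change 6.80 ± 1.40 SE, edgeR adjusted p = 0.0164, 5.78 without Mid 2), with Mid 2 the highest and Mid 3 the lowest of the Mid libraries. Dso2 showed the same order of the Mid libraries, at 16.5, 35.1, 1.58 and 5.05 CPM, against 0, 0.236, 0.482 and 0 CPM in CD (log2 fold change 6.46 ± 1.36 SE, edgeR adjusted p = 0.0173, 5.62 without Mid 2 and 7.36 without CD 3). BomT3 was at 0.556, 1.89, 0.770 and 7.05 CPM in CD and 30.0, 17.8, 12.6 and 15.7 CPM at Mid (log2 fold change 2.89 ± 0.60 SE, edgeR adjusted p = 0.0166, 4.14 without CD 4). BomS2 (2.45 ± 0.63, SE), BomS3 (2.70 ± 0.72, with 1 CD library above 1 Mid library) and BomBc3 (2.40 ± 0.61, and 3.25 without CD 3), named after their values were seen, made up the rest. Each call was lost in 1 or more fits, without CD 1, CD 2, CD 3, CD 4, Mid 1, Mid 2 or Mid 4 (edgeR adjusted p from 0.0514 to 0.126), and Dso1 and Dso2 only without CD 2. These peptides are known as products of the fat body. The fat body markers summed to 11728 to 20578 CPM in CD and 5442 to 12552 CPM at Mid, with overlap, and their part in the result was not tested. The Toll factors rose as well: Dif was at 21.6, 17.1, 16.0 and 25.3 CPM in CD and 42.1, 45.6, 32.9 and 45.5 CPM at Mid (log2 fold change 1.05 ± 0.20 SE, edgeR adjusted p = 0.0111). dl was at 112, 117, 94.2 and 93.7 CPM in CD and 222, 198, 176 and 208 CPM at Mid (log2 fold change 0.95 ± 0.16 SE, edgeR adjusted p = 0.00756). They were the 2 calls among 21 genes of the Toll and Imd pathways, and both were in the core.

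No classical antimicrobial peptide gene passed the test as higher. Of 20 counted genes 9 passed the filter, and only 1 of these, not called, had a mean of at least 10 CPM over the 16 libraries. Among the 9, 8 had estimates below 0, and 1 fell. It was Dro, at 3.24, 4.198, 3.66 and 3.19 CPM in CD and 0.176, 1.06, 0.150 and 0.570 CPM at Mid (log2 fold change -2.85 ± 0.66 SE, edgeR adjusted p = 0.0242, -3.50 without Mid 2). Drsl5, of the Drosomycin family and named after its values were seen, was at 0.0506, 65.0, 51.2 and 350.4 CPM in CD and 0, 1.61, 0.0752 and 0.142 CPM at Mid and was not called, with CD 1 inside the Mid range (log2 fold change -8.01 ± 2.54 SE, edgeR adjusted p = 0.0699). Of 9 peptidoglycan recognition proteins, PGRP-LB, an amidase that dampens Imd signalling, rose (log2 fold change 1.03 ± 0.21 SE, edgeR adjusted p = 0.0136, core), PGRP-SA, a receptor upstream of Toll, fell from 26.7, 24.4, 43.4 and 68.2 CPM to 13.5, 10.5, 10.1 and 13.3 CPM (log2 fold change -1.78 ± 0.37 SE, edgeR adjusted p = 0.0168, core), and PGRP-SC2, an amidase of the gut, fell (log2 fold change -4.43 ± 1.05 SE, edgeR adjusted p = 0.025, -2.93 without CD 2). PPO3, a prophenol oxidase of lamellocytes, was the 1 call among 11 melanisation and clotting genes (log2 fold change -2.45 ± 0.66 SE, edgeR adjusted p = 0.0411, -1.85 without CD 3). The calls of Dro, PGRP-SC2 and PPO3 were lost without CD 2, CD 3, CD 4, Mid 1, Mid 2, Mid 3 or Mid 4 (edgeR adjusted p from 0.0509 to 0.159).

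Calls among matrix genes were higher, and most among cuticle genes were lower. Of 15 basement membrane and matrix enzyme genes 3 rose and 0 fell. Ppn, the matrix protein papilin, was at 286, 175, 219 and 405 CPM in CD and 667, 743, 752 and 988 CPM at Mid (log2 fold change 1.54 ± 0.34 SE, edgeR adjusted p = 0.0207). Timp, the inhibitor of matrix metalloproteinases, was at 97.4, 114.62, 109 and 104 CPM in CD and 273, 221, 167 and 167 CPM at Mid (log2 fold change 0.96 ± 0.20 SE, edgeR adjusted p = 0.0164). mspo, an M-spondin, was at 13.3, 12.0, 8.67 and 11.5 CPM in CD and 32.5, 19.95, 19.3 and 20.96 CPM at Mid (log2 fold change 1.03 ± 0.22 SE, edgeR adjusted p = 0.0169). The 3 genes had no overlap, and their calls were lost without CD 2, CD 3, Mid 1 or Mid 4 (edgeR adjusted p from 0.0555 to 0.0726). Of 71 larval and RR cuticle protein genes 1 rose and 4 fell, with a median of -0.96, beside epidermis and cuticle markers that ran, as given above, from 33982 to 64028 CPM in CD and from 10676 to 45532 CPM at Mid. Cpr47Eb was at 47.0, 67.3, 148 and 336 CPM in CD and 2168, 1486, 512 and 807 CPM at Mid (log2 fold change 3.06 ± 0.73 SE, edgeR adjusted p = 0.0255, 3.85 without CD 4). The falls were those of Lcp9, at 782, 319.9, 278 and 772 CPM in CD and 77.8, 14.7, 105 and 31.5 CPM at Mid (log2 fold change -3.23 ± 0.79 SE, edgeR adjusted p = 0.0281), Cpr92F (-3.06 ± 0.67, SE, named after its values were seen), Cpr78Cc (-3.36 ± 0.83, and -2.52 without CD 1) and Cpr56F (-4.91 ± 1.35). These 5 calls were lost without CD 1, CD 2, CD 3, CD 4, Mid 1, Mid 2, Mid 3 or Mid 4 (edgeR adjusted p from 0.0501 to 0.124). Of 30 chitin matrix genes 1 rose and 1 fell. Muc68Ca was high in 2 of the Mid libraries only, at 108, 75.7, 1.39 and 0.605 CPM against 0.455, 0.142, 0.0963 and 0.746 CPM in CD (log2 fold change 6.97 ± 1.73 SE, edgeR adjusted p = 0.0308, 6.13 without Mid 1 and 7.63 without CD 4), so Mid 4 lay inside the CD range. Cht11, a chitinase, fell (log2 fold change -0.72 ± 0.20 SE, edgeR adjusted p = 0.0447). Both were lost without CD 2, CD 3, CD 4, Mid 1, Mid 3 or Mid 4 (edgeR adjusted p from 0.0531 to 0.137).

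Many of the largest falls were those of digestive genes, and they moved with the midgut markers (8 genes, 101 to 404 CPM in CD and 26.3 to 67.7 CPM at Mid). These markers include Jonah protease, trypsin and alpha-mannosidase genes. The digestive lists hold the same families, so the markers are no independent measure of the midgut here. The part of the midgut in these falls was not tested. Of 28 digestive proteases 4 fell and 0 rose, with a median of -4.32, and of 18 lysozymes and glycosidases 7 fell and 0 rose, with a median of -2.76. In CD the 32 protease genes of the list summed to 362, 1408, 361 and 366 CPM, and at Mid to 62.2, 53.7, 38.8 and 8.29 CPM. The trypsin gene epsilonTry was at 4.05, 97.3, 77.2 and 16.5 CPM in CD and 0, 0.594, 0.0376 and 0.214 CPM at Mid (log2 fold change -7.82 ± 1.88 SE, edgeR adjusted p = 0.0272, -7.24 without CD 2 and -8.96 without Mid 2). Jon25Bi was at 14.5, 92.3, 9.53 and 28.5 CPM in CD and 0.0882, 0.0849, 0.113 and 0.0356 CPM at Mid (log2 fold change -8.73 ± 2.06 SE, edgeR adjusted p = 0.0254, -7.68 without CD 2). Jon74E was at 16.3, 141, 19.1 and 4.88 CPM in CD and 1.54, 0.552, 1.32 and 1.53 CPM at Mid (log2 fold change -5.19 ± 1.24 SE, edgeR adjusted p = 0.0262, -3.43 without CD 2). Both are serine proteases of the Jonah family, and neither overlapped between groups. Jon44E, of the same family, had 445 counts over the CD libraries and 2 over the Mid libraries (a ratio of 339.6-fold, exact 95% counting interval 93.5 to 2813, log2 fold change -7.72 ± 1.99 SE, edgeR adjusted p = 0.0338, -6.07 without CD 2). CD 2 was the highest CD library for each of these genes. The related serine protease gene CG18180 was at 52.7, 167, 9.92 and 4.61 CPM in CD and 2.43, 1.15, 0.451 and 0.285 CPM at Mid (log2 fold change -5.78 ± 1.34 SE, edgeR adjusted p = 0.0247, -4.38 without CD 2 and -6.55 without Mid 1). All 5 calls were lost without CD 2, CD 3, Mid 1, Mid 2, Mid 3 or Mid 4 (edgeR adjusted p from 0.0511 to 0.103).

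LysC had 900 counts over the CD libraries and 0 in each Mid library, so it was at least 458-fold lower, with the floor of 3 counts taken over the Mid group, and its call was in the core (edgeR adjusted p = 0.0136). Its fitted log2 fold change, which depends on the prior count, went from -11.12 to -10.04 without CD 2. LysB was at 4.65, 90.8, 47.9 and 30.5 CPM in CD and 0.132, 0.0849, 0.0752 and 0.142 CPM at Mid (log2 fold change -8.57 ± 2.01 SE, edgeR adjusted p = 0.0249). LysD was at 7.43, 165, 57.4 and 16.2 CPM in CD and 0.0441, 0.127, 0.263 and 0.249 CPM at Mid (log2 fold change -8.41 ± 2.17 SE, edgeR adjusted p = 0.0358). These lysozyme genes were near 0 in each Mid library. LysS had 2011 counts in CD and 2 at Mid (a ratio of 1535-fold, exact 95% counting interval 424 to 12683, log2 fold change -10.00 ± 2.78 SE, edgeR adjusted p = 0.0467). LysB, LysC and LysD are near-identical copies and LysC overlaps LysD, so the split of their reads is uncertain. Without CD 2 the log2 fold changes of LysB, LysD and LysS were -7.92, -7.23 and -8.42. The last 3 calls of the list were the alpha-mannosidase genes LManV (58 counts in CD, 1 at Mid) and LManVI (97 and 1) and the sterol-binding gene Npc2d (128 and 1), named after their values were seen. CD 4 had no Npc2d count. The CD level of LManV was 88.5-fold, exact 95% counting interval 15.3 to 3557 above that at Mid. For LManVI the ratio was 148-fold, exact 95% counting interval 26.0 to 5908. For Npc2d it was 195-fold, exact 95% counting interval 34.4 to 7777. Each of these 3 ratios rests on 1 count at Mid, in Mid 1 for LManV, Mid 4 for LManVI and Mid 2 for Npc2d. Without CD 2 the log2 fold change of Npc2d went from -6.75 to -5.56, and without CD 1 that of LManVI from -6.49 to -5.75. Except for LysC these calls were lost without CD 2, CD 3, CD 4, Mid 1, Mid 2, Mid 3 or Mid 4 (edgeR adjusted p from 0.0507 to 0.133). The intervals cover counting error only. In the core among the largest falls were Alp7, of the alkaline phosphatase family, with 1790 counts in CD and 2 at Mid (a ratio of 1366-fold, exact 95% counting interval 378 to 11290.0, edgeR adjusted p = 0.00828), and 2 genes of the lipase family. CG6271 was at 5.56, 59.9, 53.2 and 6.58 CPM in CD and 0, 0.127, 0.150 and 0.0356 CPM at Mid (log2 fold change -8.53 ± 1.24 SE, edgeR adjusted p = 0.0103). CG6283 was at 2.07, 63.8, 54.9 and 16.7 CPM in CD and 0.0882, 0.340, 0.0376 and 0.142 CPM at Mid (log2 fold change -7.78 ± 1.34 SE, edgeR adjusted p = 0.00828, -8.43 without Mid 2). The choice of the largest falls required no overlap between groups. CG8664 had 2535 counts in CD and 1 at Mid (a ratio of 3869.7-fold, exact 95% counting interval 694 to 152904, edgeR adjusted p = 0.0166). The 1 count at Mid was in Mid 2, on which the ratio rests, and the log2 fold change was -11.27 with that library and -12.77 without it. CG9021 was at 49.2, 69.2, 33.3 and 5.42 CPM in CD and 0.132, 0.679, 0.150 and 0.676 CPM at Mid (log2 fold change -6.56 ± 1.72 SE, edgeR adjusted p = 0.0382). Both were lost without CD 2, CD 3, Mid 1, Mid 2, Mid 3 or Mid 4 (edgeR adjusted p from 0.059 to 0.115).

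Genes of the fat body, the testis and sex determination had few calls. Of 17 larval serum and fat body protein genes 1 rose and 1 fell. Apoltp, which encodes the lipid transfer particle apolipoprotein, was at 7.79, 7.74, 5.68 and 6.31 CPM in CD and 38.8, 17.4, 14.3 and 21.2 CPM at Mid (log2 fold change 1.73 ± 0.45 SE, edgeR adjusted p = 0.036). Obp99b, an odorant-binding protein gene strong in the fat body, was at 1638, 2060.1, 3399 and 1410.2 CPM in CD and 793, 378, 784 and 1035 CPM at Mid (log2 fold change -1.51 ± 0.42 SE, edgeR adjusted p = 0.0472). Obp99b fell beside the fat body markers given above, of which 6 of 6 had estimates below 0. Obp49a was the other of 2 falls among 16 odorant-binding protein genes (log2 fold change -4.44 ± 1.06 SE, edgeR adjusted p = 0.0259, -5.14 without Mid 2). Of 33 testis genes edgeR and DESeq2 called 0, with 3 at an unadjusted p under 0.05, a median of -1.69 and 31 estimates below 0. Of 12 genes of sex determination and dosage compensation 1 rose, fru (log2 fold change 0.89 ± 0.21 SE, edgeR adjusted p = 0.0243). The calls of Apoltp, Obp99b, Obp49a and fru were lost without CD 2, CD 3, CD 4, Mid 1, Mid 2, Mid 3 or Mid 4 (edgeR adjusted p from 0.0558 to 0.13).

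Fewer genes were called between Mid and the other HSD stages. Of the 11607 genes 258 were called between Mid and Early, 35 higher and 223 lower at Mid (2.22%), and 21 between Late and Mid, 17 higher and 4 lower at Late (0.181%). These comparisons share the Mid libraries with that against CD. By edgeR the first count was 0 without any 1 of the Mid libraries or without Early 1 or Early 4, with 1603 to 2142 genes at an unadjusted p under 0.05, and 609 without Early 3. The second was at most 4 in every fit that left out a library except that without Late 4, which gave 242. DESeq2 called 998 and 533 genes in these comparisons. For the genes of the plots, the Early means of pyr (51.3 ± 18.4 CPM, SD, n = 4), Ets21C (14.0 ± 12.1), Socs36E (41.9 ± 15) and daw (51.8 ± 8.00) lay between those of CD and Mid. The Late means of these genes were 91.8 ± 16.9, 105 ± 40.4, 155 ± 48.5 and 171 ± 53.1 CPM. FASN2 was at 229.5 ± 114.93 CPM at Early and 182 ± 43.6 CPM at Late, and sug at 6.13 ± 2.34 and 21.2 ± 8.47 CPM. Shmt was at 166 ± 31.3 CPM at Early and 134 ± 27.4 CPM at Late, and Oat at 145 ± 28.8 and 63.7 ± 24.2 CPM. At Early both were already nearer to Mid than to CD.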

How the data were processed

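Polyadenylated RNA of body-wall muscle was sequenced from 16 pools. Per the study's methods and the submitters' processing notes, the authors made base calls with CASAVA 1.8.4, trimmed reads, aligned them with TopHat2 2.0.11 to dm3 and deposited raw read counts per gene from featureCounts. The library kit was stranded, and whether counting used strand is not given in the sources used here. Counts depend on the annotation and on how reads of overlapping genes and near-identical copies were assigned.

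The deposited counts were analysed with edgeR 4.0.16 in R 4.3.3: filterByExpr (minimum count 10), TMM normalization and 1 quasi-likelihood fit of all 16 libraries, with Benjamini-Hochberg adjustment over the 11607 genes tested and a threshold of 0.05. The 16 libraries of 4 conditions shared 1 estimate of spread. The step was tested on simulated data. CPM values are counts divided by the TMM-scaled library size. All table columns were used, and no gene row lacked an identifier. A symbol was found for 15001 of the 15682 identifiers. Of the 11607 genes tested 446 had none, as had 44 of the 739 called. Identifiers without a symbol held 7.57 to 8.27% of the counts in the CD libraries and 9.35 to 9.77% in the Mid libraries. Counts ran from 9666672 (CD 3) to 28698585 (Late 3) per library, and a gene at 0 in a group was set to a floor of 3 counts over the group. Ratios with 1 to 3 counts carry exact 95% intervals for counting error only. No 2 libraries of a group agreed within sampling noise (lowest chi-square per degree of freedom 67.9 over 24 pairs).

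Named genes were those fixed by role (sarcomere, FGF, ERK feedback, amino acid transporters, proline, insulin and tumour genes), the 12 largest rises and 12 largest falls among called genes that averaged 10 CPM or more and did not overlap between groups, and up to 3 risen and 3 fallen genes per list. Any other gene is marked. The lists hold 822 symbols written by hand, of which 751 matched, and families taken by symbol. InR and the FGF receptor gene btl had no match by symbol, and whether they are among the identifiers without a symbol was not tested. Members, lists and tests were chosen with earlier results of these data known. Alternatives were DESeq2 1.42.0 (size factors or Wald test), upper-quartile normalization, other filters, the 8 libraries alone, a replicate block, removal of the 20 most counted genes and each library left out. Overlaps of exons were read by gene name from a newer annotation than the authors used.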

Additional observations from a re-analysis of the deposited data

Results flagged for a closer look

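In 25 cases 1 of the 4 libraries of a group stood apart for a named gene, by the share of the group's range that separated it from its nearest neighbour (Dixon's test). In all, 313 groups with at least 10 counts were examined, and chance flags about 1 in 20.

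CD 4 was the highest CD library for slif (0.953), Thor (0.842), upd2 (0.893) and upd3 (0.914), at 128, 1799.7, 1.76 and 2.71 CPM. CD 1 was the highest for GluProRS (0.883), Cpr78Cc (0.854) and Nopp140 (0.835). CD 2 was the highest for LysS (0.914) and Jon74E (0.896), 2 genes of digestion, and the lowest for RpL3 (0.839). CD 3, the library with the lowest total, was the highest for P5cr (0.850) and Atg3 (0.954).

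Mid 1 was the highest Mid library for Cyp4e3 (0.854), Spn47C (0.896), CG8654 (0.858) and mspo (0.871), at 1052, 298, 93.7 and 32.5 CPM, each the highest of the 8 libraries. Mid 2 was the highest for acs (0.909), Obp49a (0.852) and Drsl5 (0.912) and the lowest for RpL4 (0.843). Mid 4 was the highest for ftz-f1 (0.893), PGRP-SC2 (0.906), Cpr56F (0.969) and lmd (0.836) and the lowest for Gtpx (0.842).

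For 8 named genes the level on HSD also differed between stages by edgeR's test. Mid against Early, Mhc fell by 2.66 on the log2 scale (edgeR adjusted p = 0.0365). The cuticle genes Cpr78Cc and Lcp9 gave log2 fold changes of -5.47 and -4.51 (edgeR adjusted p = 0.0296 for both). Mkp3, Hsp83 and dl rose by 0.69, 0.83 and 0.73 (edgeR adjusted p = 0.0365 for all 3) and kon by 0.75 (edgeR adjusted p = 0.0454). Between Mid and Late the amino acid transporter gene path rose by a further 1.48 (edgeR adjusted p = 0.0348). The Early comparison holds 0 calls without any 1 Mid library, without Early 1 or without Early 4, and the Late comparison between 0 and 4 without any 1 library other than Late 4.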

How the results depend on the processing

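Against the 739 genes called between Mid and CD, the count under DESeq2's Wald test was 1771, a fit of the 8 libraries alone 455, and the fits that left out 1 library between 181 and 1098. The count was 836 with DESeq2 size factors, 814 with upper-quartile normalization, 695 without a filter, 1065 at a mean of at least 10 CPM and 784 without the 20 most counted genes. For Mid against Early (258) DESeq2 called 998, and fits without 1 library, chosen after seeing the data, between 0 and 609. For Late against Mid (21) DESeq2 called 533 and such fits between 0 and 242. The cause of these shifts was not tested.

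With the replicate number as a block, the calls were 494 for Mid against CD, 272 for Mid against Early and 7 for Late against Mid, and 42 of the 136 called genes named here lost their call. Calls with the block, against those without it, were 4 against 15 for the proteasome, 2 against 5 for aminoacyl-tRNA synthetases, 3 against 6 for Bomanin and Daisho peptides, 3 against 5 for cuticle proteins, 1 against 4 for digestive proteases and 3 against 7 for lysozymes and glycosidases. The numbers were not taken as pairs: the correlation of same-numbered CD and Mid libraries in their deviations was 0.377, 0.389, -0.0267 and 0.521, and 3 of 4 libraries correlated best with their own number, a hint from the data and not from the design.

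Of the 136 called genes named here, 44 lost their call with the 8 libraries alone, 10 with upper-quartile normalization, 2 with DESeq2 size factors and none of the 135 with a DESeq2 adjusted p by DESeq2's test. None of the 136 reversed. Directions turned for 5 genes that were not called. Without 1 library Act57B ran from -0.27 to 0.23 (0.21 without CD 4), up from -0.023 to 0.62, ths from -0.056 to 0.43, P5cr from -0.25 to 0.13 and slif from -0.23 to 0.76 (0.0053 without Mid 2 and 0.00024 without Mid 3). With upper-quartile normalization the log2 fold change of ths was -0.012, and with the block the log2 fold change of slif was 0.15. CD 3 had the lowest depth, and genes under about 1 CPM rest on few counts there.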
